A study of Mus musculus with 8 samples.

Results

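The growth hormone axis of muscle was examined through 10 genes: the growth hormone receptor *Ghr* and its kinase *Jak2*, the transcription factor genes *Stat5a* and *Stat5b*, the feedback inhibitors *Cish*, *Socs1*, *Socs2* and *Socs3*, and the IGF genes *Igf1* and *Igfals*. They were matched by symbol in a table of 47643 genes, each had 1 row, and all 10 passed the filter that left 14229 genes to test. The pathway was chosen because differences between genotypes had already been seen in these same 8 libraries, so the genotype differences of these 10 genes are given as a description, and where the number that passed a threshold is counted, it stands beside the share of all genes and nothing is read from it. RNA was sequenced from quadriceps muscle of 4 C57BL/6 mice labelled Nup210+/+ and 4 C57BL/6 mice labelled Nup210-/-, 1 library per mouse, from lines that the methods describe as backcrossed to C57BL/6J. The Nup210-/- mice came from a cross of floxed *Nup210* mice with Hprt-Cre mice and carry the deletion constitutively, in all tissues and not in muscle alone, while the controls are wild type for this nuclear pore protein. The age and sex of these mice were not given in the sources used here. The values are TPM, which express each transcript as a share of all transcripts in its library and allow for gene length.

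Growth hormone binds Ghr, which activates the kinase Jak2, and Jak2 phosphorylates Stat5a and Stat5b, which then enter the nucleus and bind DNA. Stat5 switches on *Cish*, *Socs1*, *Socs2* and *Socs3* to different degrees, and their proteins damp signalling at the receptor, so that *Cish* and *Socs2* are widely used as readouts of Stat5 activity. Stat5 also drives *Igf1*, a growth factor made by liver and, for local use, by muscle and its connective tissue, while *Igfals* encodes the acid-labile subunit that holds IGF1 in the circulation and is made mainly in liver. Growth hormone is secreted in pulses, and *Cish* and *Socs2* transcripts follow such pulses within hours.

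Stat5 binds the palindrome TTCNNNGAA, which reads the same on both strands. In the RefSeq promoter windows for GRCm38.p6, 9 of the 10 genes had at least 1 window, and 2 of these 9 held the palindrome in the 250 bases before a start site, against 8.13% of all 27025 genes. These were *Socs3* and *Igfals*, whose matches are shown with the palindrome in capitals. They place the sequence that Stat5 reads within the annotated spans of members of the pathway itself.
Socs3, chr11:117969502-117969530, minus strand: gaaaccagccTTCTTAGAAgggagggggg
Igfals, chr17:24877598-24877626, plus strand: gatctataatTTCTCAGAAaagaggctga
Igfals, chr17:24878163-24878191, plus strand: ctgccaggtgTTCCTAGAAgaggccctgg
The first base of the match lay 154 bases before the start used for the *Socs3* window, and 236 and 58 bases before 2 of the *Igfals* starts. The bases just after that *Socs3* start were not found in its GENCODE M21 transcripts, so the 2 annotations differ there. No match was found in the windows of *Ghr*, *Jak2*, *Stat5a*, *Stat5b*, *Cish*, *Socs1* and *Igf1*, which says only that these letters were not in these windows. All 250 bases of the only window of *Cish*, and of that of *Igf1*, lay in annotated exons. *Socs2* was the gene without a window. *Socs3* and *Igfals* had log2 fold changes of 0.06 and -0.23, with the values by mouse given with each gene further on. All 3 stretches lay inside the span that GENCODE M21 gives the gene and outside its exons. A match is a description of the sequence and not evidence of binding in muscle.

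The labelled genotype was looked at first. *Nup210* measured 5.71, 10.11, 9.19 and 6.71 TPM in Nup210+/+ replicates 1 to 4, and 9.54, 10.79, 11.93 and 8.81 TPM in Nup210-/- replicates 1 to 4. Gene-level *Nup210* was thus no lower under the Nup210-/- label than under the other (log2 fold change 0.44, SE 0.15, limma adjusted p = 0.231), and a deletion inside the gene is not visible in a value summed over the gene. The paper reports loss of the Nup210 protein in muscle of Nup210-/- mice, by immunoprecipitation and immunofluorescence. Whether those were the sequenced mice was not given in the sources used here, so every direction given here rests on the labels. Skeletal muscle markers were high in every library, with a summed level of 68774 to 72496 TPM in Nup210+/+ and 75358 to 80511 TPM in Nup210-/- for *Ckm*, *Acta1*, *Myh4*, *Myh1*, *Tnnt3* and *Des*. Hepatocyte markers were at or near 0, with a sum of at most 1.56 TPM for *Alb*, *Apoa1*, *Ttr* and *Serpina1a*. Nup210+/+ replicates 2 and 3 stood apart from the rest. Replicate 2 held 381.69 TPM of 6 granulocyte precursor genes (*Elane*, *Mpo*, *Prtn3*, *Ctsg*, *Ms4a3*, *Cebpe*), against 0.31 to 2.12 TPM in the other 7, and replicate 3 had the highest summed leukocyte, fibroblast and adipocyte markers. The range of each estimate with 1 library left out is given after the last of the 10 genes.

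*Ghr* and *Jak2*, at the receptor end of the axis, had close means in both genotypes. On scaled TPM they overlapped between genotypes, as did *Stat5a*, *Cish*, *Socs1*, *Socs3* and *Igfals*, while *Stat5b*, *Socs2* and *Igf1* lay apart, in both directions. The Nup210-/- mean was 0.939 times the wild-type mean for *Ghr* and 0.996 times for *Jak2*, *Stat5b* was higher in every Nup210-/- mouse, and *Socs2* and *Igf1* were lower in every Nup210-/- mouse. *Cish* had the lowest log2 fold change of the 10 genes and also the widest spread between mice. On the scaled TPM used for testing, 3 of the 10 genes had no overlap between the genotypes, *Socs2* and *Igf1* lower and *Stat5b* higher, where 4.6% of all tested genes had no overlap and were lower and 4.78% had none and were higher. In the limma fit over all 14229 genes, 1 of the 10 passed an adjusted p of 0.05, *Stat5b*, which was higher, where 0.0492% of all tested genes passed and were higher and 0.0633% passed and were lower. At an unadjusted p of 0.05, *Cish*, *Socs2* and *Igf1* passed in the lower direction, where 7.18% of tested genes did, and *Stat5b* passed in the higher direction, where 7.0% did. Because the genes were chosen by this contrast, nothing is read from these counts. The median log2 fold change was -0.11 over the 10 genes and -0.01 over all genes tested, and 5 of the 10 estimates were below 0.

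**Figure D1:**
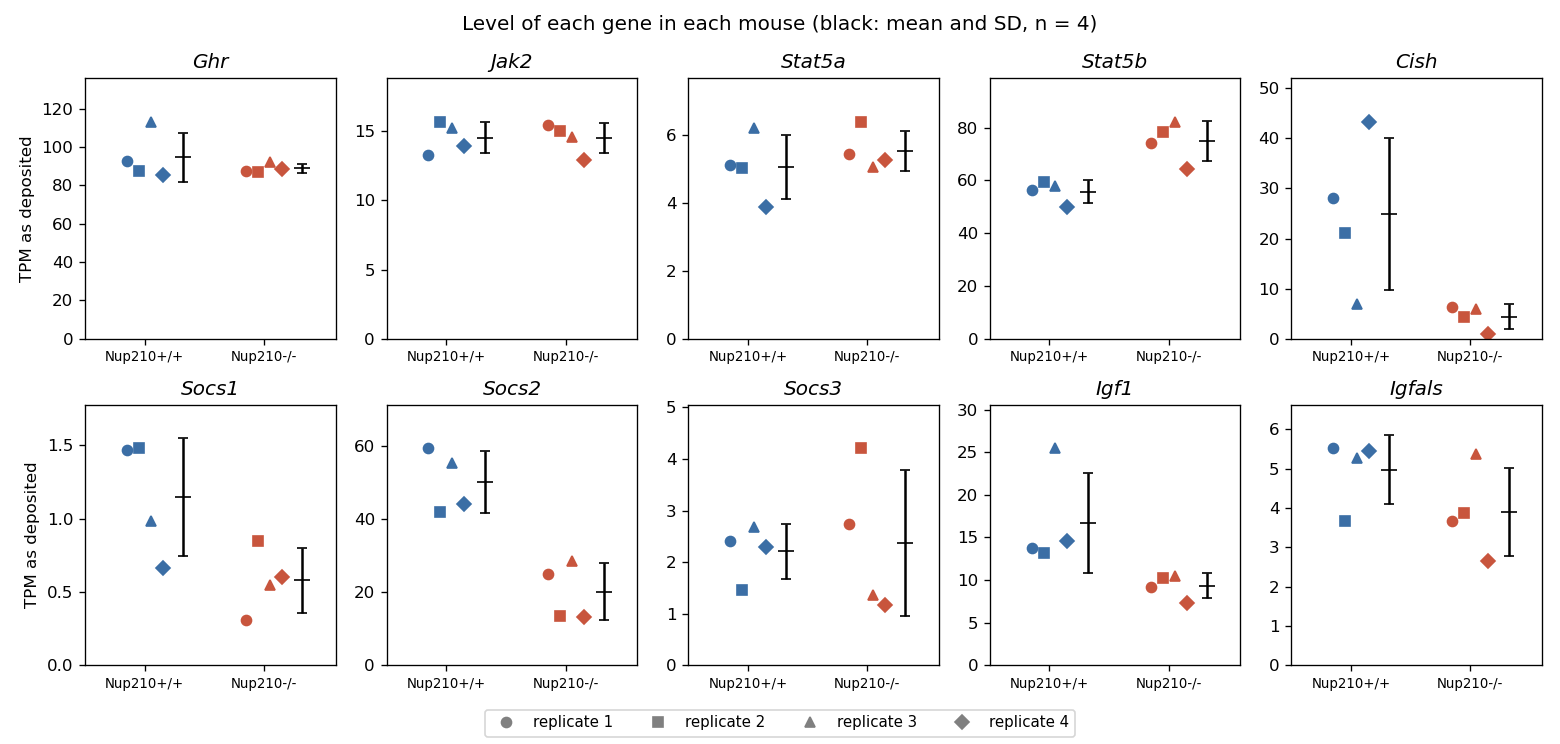
TPM of the 10 genes in each of the 8 mice, in Nup210+/+ (blue) and Nup210-/- (red), with 1 marker shape per replicate number and the mean ± SD (n = 4) in black, on linear axes that start at 0 and differ between panels. The 4 Nup210-/- mice lay at 13.24 to 28.53 TPM of *Socs2*, all below the 41.87 to 59.28 TPM of the wild-type mice, and at 64.44 to 82.17 TPM of *Stat5b*, all above the 49.71 to 59.21 TPM of the wild-type mice.

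At the cell surface, *Ghr*, on mouse chromosome 15 (3317760 to 3583492, minus strand, in the GENCODE M21 annotation of GRCm38), was the most abundant transcript of the axis in both genotypes. It measured 92.52, 87.55, 113.09 and 85.14 TPM in Nup210+/+ replicates 1 to 4 and 87.48, 87.12, 91.97 and 88.6 TPM in Nup210-/- replicates 1 to 4. The genotypes overlapped, and the 1 high value was that of Nup210+/+ replicate 3. The means were 94.6 ± 12.7 TPM (SD, n = 4) and 88.8 ± 2.21 TPM (SD, n = 4), and the log2 fold change, Nup210-/- minus Nup210+/+, was 0.01 (SE 0.06). Its sign was not stable: it turned negative in 3 of 19 alternative settings, to -0.08 on TPM as deposited.

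*Jak2*, the kinase bound to the receptor, lies on chromosome 19 (29251828 to 29313080, plus strand). Wild-type mice measured 13.29, 15.68, 15.24 and 13.94 TPM and Nup210-/- mice 15.43, 14.98, 14.58 and 12.94 TPM. The ranges of the genotypes overlapped almost entirely, with means of 14.5 ± 1.11 TPM and 14.5 ± 1.09 TPM (SD, n = 4 each). The log2 fold change was 0.08 (SE 0.08), and it turned to -0.01 on TPM as deposited, 1 of 19 settings. *Ghr*, *Stat5b* and *Jak2* were the steadiest of the 10 genes between mice of a genotype, with a pooled SD of 0.0799, 0.0903 and 0.0951 on the log2(scaled TPM + 1) scale, and 91.1%, 87.0% and 84.9% of all tested genes varied more.

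The Stat5 genes are neighbours on chromosome 11, *Stat5b* at 100780731 to 100850724 on the minus strand and *Stat5a* at 100859351 to 100885169 on the plus strand, with 8626 bases between them. Of the 75-base stretches in their transcripts, 5.12% of those of *Stat5a* and 6.99% of those of *Stat5b* were shared with each other, so a small part of their reads had to be divided by the authors' estimation. Exons of *Stat5a* also overlap exons of *Stat3* on the opposite strand, and the strand setting of the quantification was not given in the sources used here.

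*Stat5b* measured 56.17, 59.21, 57.94 and 49.71 TPM in Nup210+/+ replicates 1 to 4, and 74.28, 78.42, 82.17 and 64.44 TPM in Nup210-/- replicates 1 to 4. All 4 Nup210-/- mice lay above all 4 wild-type mice. The means were 55.8 ± 4.22 TPM and 74.8 ± 7.64 TPM (SD, n = 4 each), a ratio of 1.34, and the log2 fold change was 0.51 (SE 0.07). The genotypes also had no overlap on TPM as deposited or with upper-quartile scaling. Overlap is read on TPM before the fit, so the other alternatives leave it as it is or only drop a mouse and rescale. The estimates ran from 0.42 to 0.56 over 19 alternative settings. The limma adjusted p of *Stat5b* was 0.0490, and it was under 0.05 in 5 of the 19. With 1 library left out it was 0.0552 to 0.160.

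*Stat5a*, the paralog, was much less abundant. It measured 5.13, 5.03, 6.2 and 3.88 TPM in wild-type mice and 5.45, 6.39, 5.06 and 5.25 TPM in Nup210-/- mice. The genotypes overlapped, with the lowest value in Nup210+/+ replicate 4 and the highest in Nup210-/- replicate 2. The means were 5.06 ± 0.948 TPM and 5.54 ± 0.590 TPM (SD, n = 4 each), and the log2 fold change was 0.20 (SE 0.11), or 0.13 without Nup210+/+ replicate 4 and 0.12 on TPM as deposited. Since TPM are per length, the paralogs can be set side by side: *Stat5b* was 9.35 to 12.8 times as high as *Stat5a* in wild-type mice and 12.3 to 16.2 times as high in Nup210-/- mice, and these ranges overlapped. The sum of both was 53.6 to 64.2 TPM in wild-type mice and 69.7 to 87.2 TPM in Nup210-/- mice, with no overlap, and *Stat5b* made up most of it.

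The 4 feedback genes summed to 65.8 to 91.3 TPM in wild-type mice and to 16.0 to 36.4 TPM in Nup210-/- mice, with no overlap on TPM as deposited. *Socs2* made up 48.7% to 83.9% of this sum in wild-type mice and 59.2% to 83.0% in Nup210-/- mice. *Cish*, *Socs1* and *Socs2* had negative estimates in every setting that tested them, and the estimate of *Socs3* lay near 0 with a sign that changed between settings.

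*Socs2* encodes an inhibitor that promotes degradation of Ghr, and it lies on chromosome 10 (95385362 to 95417180, minus strand). Wild-type mice measured 59.28, 41.87, 55.29 and 43.99 TPM and Nup210-/- mice 24.82, 13.52, 28.53 and 13.24 TPM. Every Nup210-/- mouse was below every wild-type mouse, and the Nup210-/- mice fell into a higher pair (replicates 1 and 3) and a lower pair (replicates 2 and 4). The means were 50.1 ± 8.49 TPM and 20.03 ± 7.82 TPM (SD, n = 4 each), so that the wild-type mean was 2.50 times the Nup210-/- mean, and the log2 fold change was -1.25 (SE 0.24). The genotypes had no overlap on scaled TPM, on TPM as deposited or with upper-quartile scaling. As for *Stat5b*, the other alternatives leave the overlap as it is or only drop a mouse and rescale. The estimates ran from -1.42 to -1.09. The limma adjusted p of *Socs2* was 0.0933, and it was under 0.05 in 0 of 19 alternative settings. Of its 75-base stretches, 3.15% were shared with *Adarb1* or *Gm9847*.

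*Cish*, an inhibitor that competes for docking sites on cytokine receptors, lies on chromosome 9 (107296026 to 107302784, plus strand). It measured 28.18, 21.02, 6.91 and 43.29 TPM in Nup210+/+ replicates 1 to 4 and 6.41, 4.27, 5.99 and 0.95 TPM in Nup210-/- replicates 1 to 4. On TPM as deposited, the genotypes were separated only by the gap between 6.41 TPM in Nup210-/- replicate 1 and 6.91 TPM in Nup210+/+ replicate 3. After scaling, these 2 mice changed places, at 6.78 and 6.15, and the genotypes overlapped. The means were 24.9 ± 15.1 TPM and 4.41 ± 2.48 TPM (SD, n = 4 each), the wild-type mean being 5.64 times the other, and the log2 fold change was -2.11 (SE 0.59).

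*Cish* was the most variable of the 10 genes between mice of the same genotype. The highest wild-type mouse had 6.26 times the TPM of the lowest, and the highest Nup210-/- mouse 6.75 times that of the lowest. Its pooled SD was 1.02 on the log2(scaled TPM + 1) scale, and only 1.66% of all tested genes varied more. The estimate was -2.62 without Nup210+/+ replicate 3, whose *Cish* was the lowest of the wild type, and -1.68 without Nup210-/- replicate 4, whose *Cish* was the lowest of all. Exons of *Cish* overlap those of *Gm17040* and *Gm17041* on the opposite strand.

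The low value of *Cish* in Nup210+/+ replicate 3 was not shared by *Socs2*. In that mouse *Socs2* was 8.0 times as high as *Cish*, against 1.02 to 2.10 times in the other 3 wild-type mice and 3.17 to 13.9 times in the Nup210-/- mice. Both inhibitors had their lowest TPM as deposited in Nup210-/- replicate 4.

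*Socs1*, on chromosome 16 (10782240 to 10785536, minus strand), encodes an inhibitor that acts on Janus kinases directly and was the least abundant of the 10. It measured 1.47, 1.48, 0.98 and 0.66 TPM in wild-type mice and 0.31, 0.85, 0.55 and 0.6 TPM in Nup210-/- mice. Nup210+/+ replicate 4 lay within the range of the Nup210-/- mice. The means were 1.15 ± 0.400 TPM and 0.578 ± 0.221 TPM (SD, n = 4 each), a ratio of 1.99, but at so low a level the pseudocount of 1 compresses the difference, and the log2 fold change was -0.39 (SE 0.18), or -0.80 with a pseudocount of 0.1.

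*Socs3*, the inhibitor best known for acting on gp130 receptors, lies on chromosome 11 (117966079 to 117970047, minus strand). Wild-type mice measured 2.4, 1.45, 2.69 and 2.3 TPM and Nup210-/- mice 2.74, 4.21, 1.37 and 1.16 TPM. The Nup210-/- mice enclosed the wild-type range, with 2 values above it and 2 below it. The means were 2.21 ± 0.533 TPM and 2.37 ± 1.41 TPM (SD, n = 4 each), and the log2 fold change was 0.06 (SE 0.28), with a change of sign in 4 of 19 settings, among them -0.01 on TPM as deposited and -0.06 without Nup210+/+ replicate 2.

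**Figure D2:**
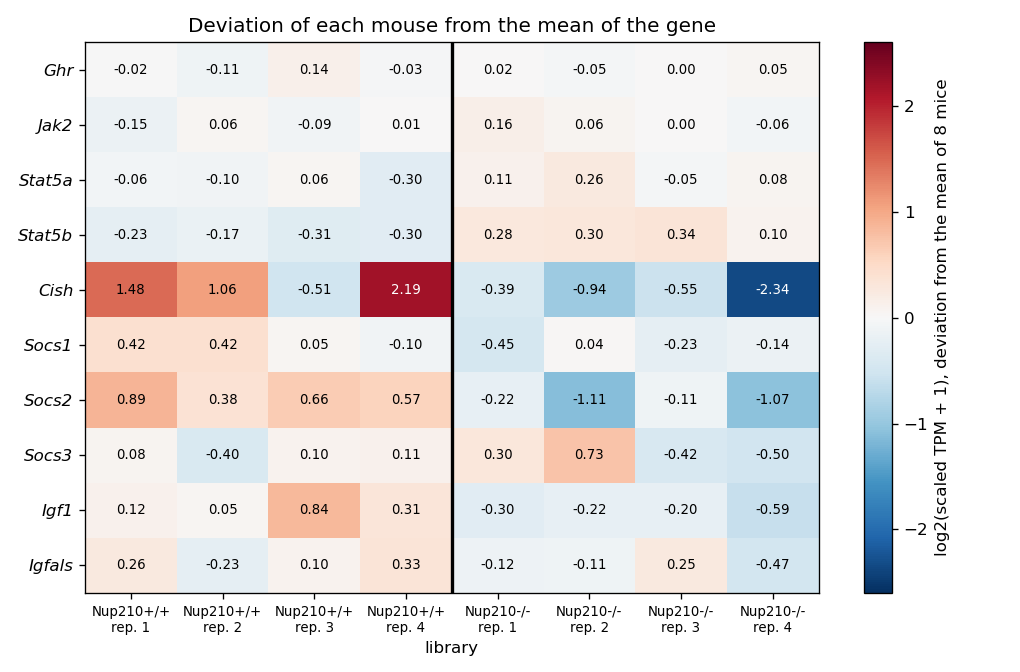
Deviation of each mouse from the 8-mouse mean of each gene on the log2(scaled TPM + 1) scale, with the 4 Nup210+/+ mice on the left and the 4 Nup210-/- mice on the right of the black line. *Stat5b* is below its mean in all 4 wild-type mice and above it in all 4 Nup210-/- mice, *Socs2* is the reverse, and *Cish* in Nup210+/+ replicate 3 deviates by -0.51, within the Nup210-/- range of -2.34 to -0.39.

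Of the IGF genes, *Igf1* lies on chromosome 10 (87858265 to 87937042, plus strand). Nup210+/+ replicates 1 to 4 measured 13.71, 13.12, 25.47 and 14.63 TPM, and Nup210-/- replicates 1 to 4 measured 9.2, 10.22, 10.52 and 7.27 TPM. The genotypes did not overlap, and Nup210+/+ replicate 3 stood far above the other wild-type mice. The means were 16.7 ± 5.86 TPM and 9.30 ± 1.47 TPM (SD, n = 4 each), the wild-type mean being 1.80 times the other, and the log2 fold change was -0.66 (SE 0.17). Without Nup210+/+ replicate 3 it was -0.48. Leaving out this highest mouse could not bring the genotypes to overlap.

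*Igfals*, on chromosome 17 (24865997 to 24882010, plus strand), was low but above 0 in every mouse, in libraries where the 4 hepatocyte markers were at or near 0. It measured 5.52, 3.66, 5.28 and 5.45 TPM in wild-type mice and 3.68, 3.88, 5.36 and 2.65 TPM in Nup210-/- mice. The genotypes overlapped, with Nup210+/+ replicate 2 among the low values and Nup210-/- replicate 3 among the high ones. The means were 4.98 ± 0.884 TPM and 3.89 ± 1.12 TPM (SD, n = 4 each), and the log2 fold change was -0.23 (SE 0.17), or -0.34 without Nup210+/+ replicate 2, -0.35 without Nup210-/- replicate 3 and -0.11 without Nup210-/- replicate 4.

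With each library left out in turn, the estimates of the genes at the receptor ran from -0.02 to 0.06 for *Ghr* and from 0.04 to 0.12 for *Jak2*, and those of the Stat5 genes from 0.13 to 0.25 for *Stat5a* and from 0.48 to 0.56 for *Stat5b*. The inhibitors ran from -2.62 to -1.68 for *Cish*, from -0.49 to -0.31 for *Socs1*, from -1.42 to -1.09 for *Socs2* and from -0.18 to 0.23 for *Socs3*. *Igf1* ran from -0.75 to -0.48 and *Igfals* from -0.35 to -0.11. Of the 10 genes, *Ghr* and *Socs3* changed sign when a library was left out.

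Markers of other cells moved with genotype beside these values. All 10 leukocyte genes tested had negative log2 fold changes, from -0.81 for *Cd52* to -0.21 for *Cd68*, and *Cd52* passed the test (adjusted p = 0.0490). With 1 library left out its adjusted p was 0.0464 to 0.139, under the threshold only without Nup210+/+ replicate 4, and in 6 of the 11 other alternatives, on TPM as deposited, with upper-quartile scaling, with looser filters, without trend and with the replicate block, it was 0.0556 to 0.226 and the call was lost. On scaled TPM, besides *Cd52*, 7 of the 10 had no overlap between genotypes: *Ptprc*, *Adgre1*, *Csf1r*, *C1qa*, *Lyz2*, *Itgam* and *Laptm5*. All of these were lower, where 4.6% of all tested genes had no overlap and were lower. On TPM as deposited *Laptm5* overlapped, at 6.06 to 6.78 TPM in Nup210-/- mice and 6.65 to 19.65 TPM in wild-type mice. With a second row for *Itgam*, too low to test, the list summed to 255.1, 286.1, 416.06 and 196.74 TPM in Nup210+/+ replicates 1 to 4 and to 164 to 189 TPM in the Nup210-/- mice, without overlap. The 5 fibroblast genes all had negative estimates as well, from -0.55 for *Col1a1* to -0.18 for *Lum*, none passing the test. On scaled TPM *Col3a1* alone had no overlap, and on TPM as deposited *Col1a1* had none either. The sums, as deposited, were 832.64, 798.56, 1113.98 and 699.51 TPM against 569 to 682 TPM, also without overlap. The adipocyte sums overlapped, at 82.4 to 254 TPM in wild-type mice and 93.7 to 139 TPM in Nup210-/- mice, with estimates from -0.34 for *Lep* to -0.07 for *Plin1* and *Cidec*. The granulocyte precursor estimates, from -1.84 for *Ctsg* to -0.87 for *Cebpe*, had Nup210+/+ replicate 2 as the 1 high library, and *Alb*, the hepatocyte gene tested, was at -0.22. All 6 muscle markers had positive estimates, from 0.16 for *Ckm* to 0.30 for *Myh4*, with none past the adjusted threshold. On scaled TPM *Acta1* and *Des* had no overlap, where 4.78% of all tested genes had none and were higher. On TPM as deposited these were *Tnnt3* and *Des*. Cells other than fibres, leukocytes and fibroblasts among them, also make *Igf1*, and the part of these cells in the *Igf1*, *Socs1*, *Socs2*, *Cish* and *Igfals* values was not tested. In bulk muscle, fewer cells of a type and less RNA per cell cannot be told apart.

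**Figure D3:**
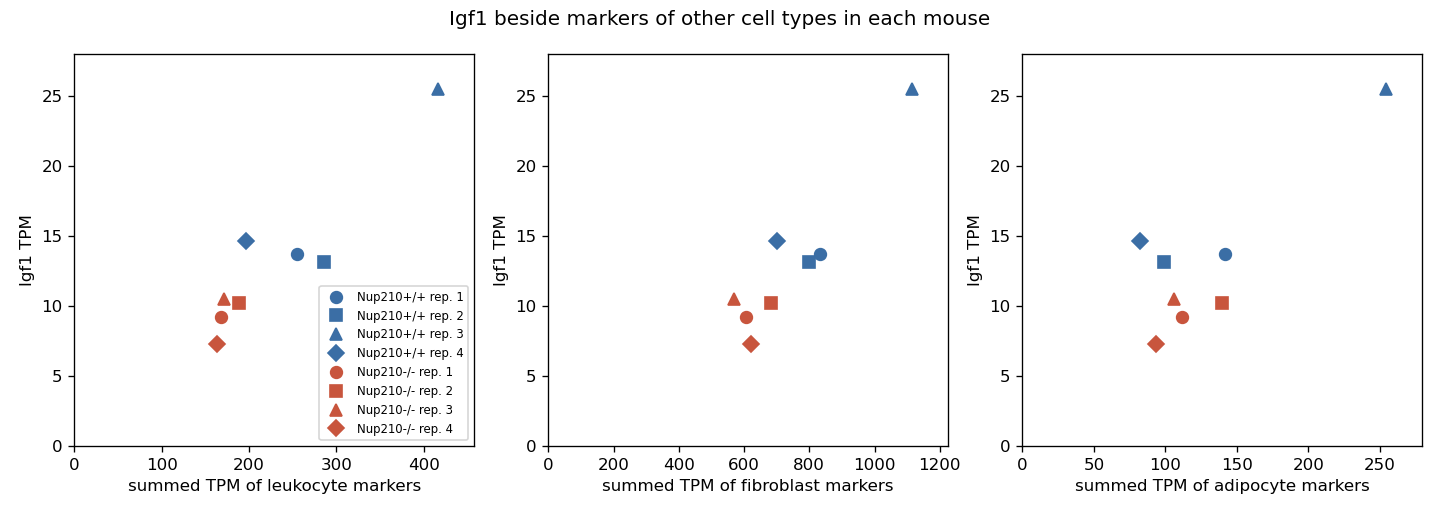
*Igf1* TPM (vertical axis) in each of the 8 mice against the summed TPM of leukocyte, fibroblast and adipocyte markers (horizontal axes), with wild-type mice in blue, Nup210-/- mice in red and 1 marker shape per replicate number. Nup210+/+ replicate 3 is at the top right of each panel, with 25.47 TPM of *Igf1* beside 416.06, 1113.98 and 254.15 TPM of the 3 marker lists.

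The order of the levels differed with genotype in its middle. In wild-type mice it ran *Ghr*, *Stat5b*, *Socs2*, *Cish*, *Igf1*, *Jak2*, *Stat5a*, *Igfals*, *Socs3* and *Socs1*, from a mean of 94.6 TPM down to 1.15 TPM. Neighbours in this order overlapped between mice except *Ghr* over *Stat5b*, *Jak2* over *Stat5a*, and *Igfals* over *Socs3*. In Nup210-/- mice the order was *Ghr*, *Stat5b*, *Socs2*, *Jak2*, *Igf1*, *Stat5a*, *Cish*, *Igfals*, *Socs3* and *Socs1*, from 88.8 TPM down to 0.578 TPM. There *Ghr*, *Stat5b*, *Jak2*, *Igf1* and *Socs3* were each clear of the next gene, while *Socs2* overlapped *Jak2*, and *Cish* overlapped both *Stat5a* and *Igfals*. *Cish* was thus above *Jak2* in the means of wild-type mice, though not in every mouse, and below it in all 4 Nup210-/- mice.

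The rest of the pathway was read from lists set by role and not by how the genes moved, 60 genes in all, of which 51 could be tested. In limma, 0 of them reached the adjusted threshold, against 0.0633% of all tested genes lower and 0.0492% higher. At an unadjusted p under 0.05 there were 2 lower and 3 higher, that is 2 and 3 of 51 against 7.18% and 7.0% of all tested genes. Without overlap were *Socs4* and *Ccnd1*, lower, and *Pias2*, higher, that is 2 and 1 of 51 against the 4.6% and 4.78% over all tested genes. The median log2 fold change of the 51 was -0.02, with 26 estimates below 0 and 25 above.

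The hormone genes *Gh*, *Prl* and *Ghrh* and the ghrelin receptor gene *Ghsr* were listed at 0 in all 8 libraries. Of 12 receptors of the same cytokine family or its shared subunits, 9 were tested and none passed, with estimates from -0.43 for the interleukin 4 receptor gene *Il4ra* (adjusted p = 0.392) to 0.17 for the leptin receptor gene *Lepr* (adjusted p = 0.691). *Il4ra* measured 7.19, 3.93, 6.76 and 2.87 TPM in wild-type mice and 3.05, 3.15, 3.87 and 2.64 TPM in Nup210-/- mice, which overlapped. Prolactin and erythropoietin, which also signal through Stat5, had receptor genes at no more than 0.65 TPM (*Prlr*) and 0.67 TPM (*Epor*) in any mouse.

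Among the other Janus kinases and Stats, 7 of 8 were tested and lay close to 0, from -0.14 for *Stat2* (adjusted p = 0.636) to 0.10 for *Stat3* (adjusted p = 0.768). *Stat3*, which adjoins the Stat5 genes on the chromosome, measured 22.46, 23.51, 21.36 and 16.22 TPM in wild-type mice and 17.77, 23.32, 18.29 and 24.8 TPM in Nup210-/- mice. These ranges overlapped widely, unlike those of *Stat5b*.

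The other Socs genes, *Socs4* to *Socs7*, were all tested and spanned -0.17 to 0.06. *Socs4*, which acts mainly on epidermal growth factor signalling, was the lowest, at 4.41, 4.33, 5.23 and 4.25 TPM in wild-type mice and 3.82, 3.54, 3.6 and 3.68 TPM in Nup210-/- mice. The genotypes did not overlap but the difference was small (log2 fold change -0.17, SE 0.08, adjusted p = 0.377). *Socs7* was the highest, at 0.06 (adjusted p = 0.862).

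The phosphatases and adaptors of signalling from these receptors, together with the Pias proteins, gave 12 tested genes and no call. The lowest was *Ptpn6*, the phosphatase Shp1 of blood cells, at -0.61 (SE 0.36, adjusted p = 0.466), where Nup210+/+ replicate 2 had 9.66 TPM against 1.45 to 3.05 TPM in the other 7 mice. Without that library, which also held the granulocyte precursor genes, the estimate was -0.21. The highest was the adaptor gene *Sh2b2*, at 0.32 (adjusted p = 0.521). *Pias2*, an inhibitor of Stat proteins in the nucleus, did not overlap after scaling but differed by only 0.12 (SE 0.06, adjusted p = 0.399), and its deposited TPM overlapped.

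Other genes known as Stat5 targets pointed both ways. Of 10 listed, 9 were tested, none passed, and the median log2 fold change was 0.03, with 4 estimates below 0 and 5 above. The highest was *Gadd45g*, a stress and growth arrest gene, at 61.42, 29.47, 37.82 and 34.06 TPM in wild-type mice and 64.62, 57.27, 75.31 and 59.58 TPM in Nup210-/- mice. Only Nup210+/+ replicate 1 reached the Nup210-/- range, and the log2 fold change was 0.79 (SE 0.20, adjusted p = 0.160), or 1.00 without that mouse (adjusted p = 0.0570) and 0.65 without Nup210+/+ replicate 2. The lowest was *Myc*, at 9.65, 14.32, 7.36 and 3.59 TPM in wild-type mice and 3.5, 4.69, 4.72 and 3.13 TPM in Nup210-/- mice (log2 fold change -0.76, SE 0.30, adjusted p = 0.302). Its estimate was -0.50 without Nup210+/+ replicate 2, the library with the granulocyte precursor genes, and -1.05 without Nup210+/+ replicate 4. The cyclin gene *Ccnd1* was lower without overlap, at 7.57, 5.52, 6.75 and 5.87 TPM against 4.86, 4.88, 5.02 and 4.15 TPM (-0.29, SE 0.10, adjusted p = 0.250).

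The list around the IGF1 signal, which besides the genes that receive it held a ligand and a binding protein, gave 10 tested genes and no call. The receptor gene *Igf1r* was at 3.01 ± 0.165 TPM in wild-type mice and 2.84 ± 0.315 TPM in Nup210-/- mice (SD, n = 4 each), a log2 fold change of 0.00 (SE 0.10). The lowest estimate was that of *Irs1*, the docking protein of the insulin and IGF1 receptors, at -0.46 (adjusted p = 0.471), and the highest that of *Foxo1*, a factor held back by the same signal, at 0.24 (adjusted p = 0.804). *Foxo1* measured 5.18, 4.33, 19.06 and 3.76 TPM in wild-type mice and 7.19, 8.3, 5.91 and 8.07 TPM in Nup210-/- mice. The single high value was Nup210+/+ replicate 3, and without it the estimate was 0.67 (adjusted p = 0.134), while it was 0.05 without Nup210+/+ replicate 4 and 0.08 without Nup210+/+ replicate 2.

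**Figure D4:**
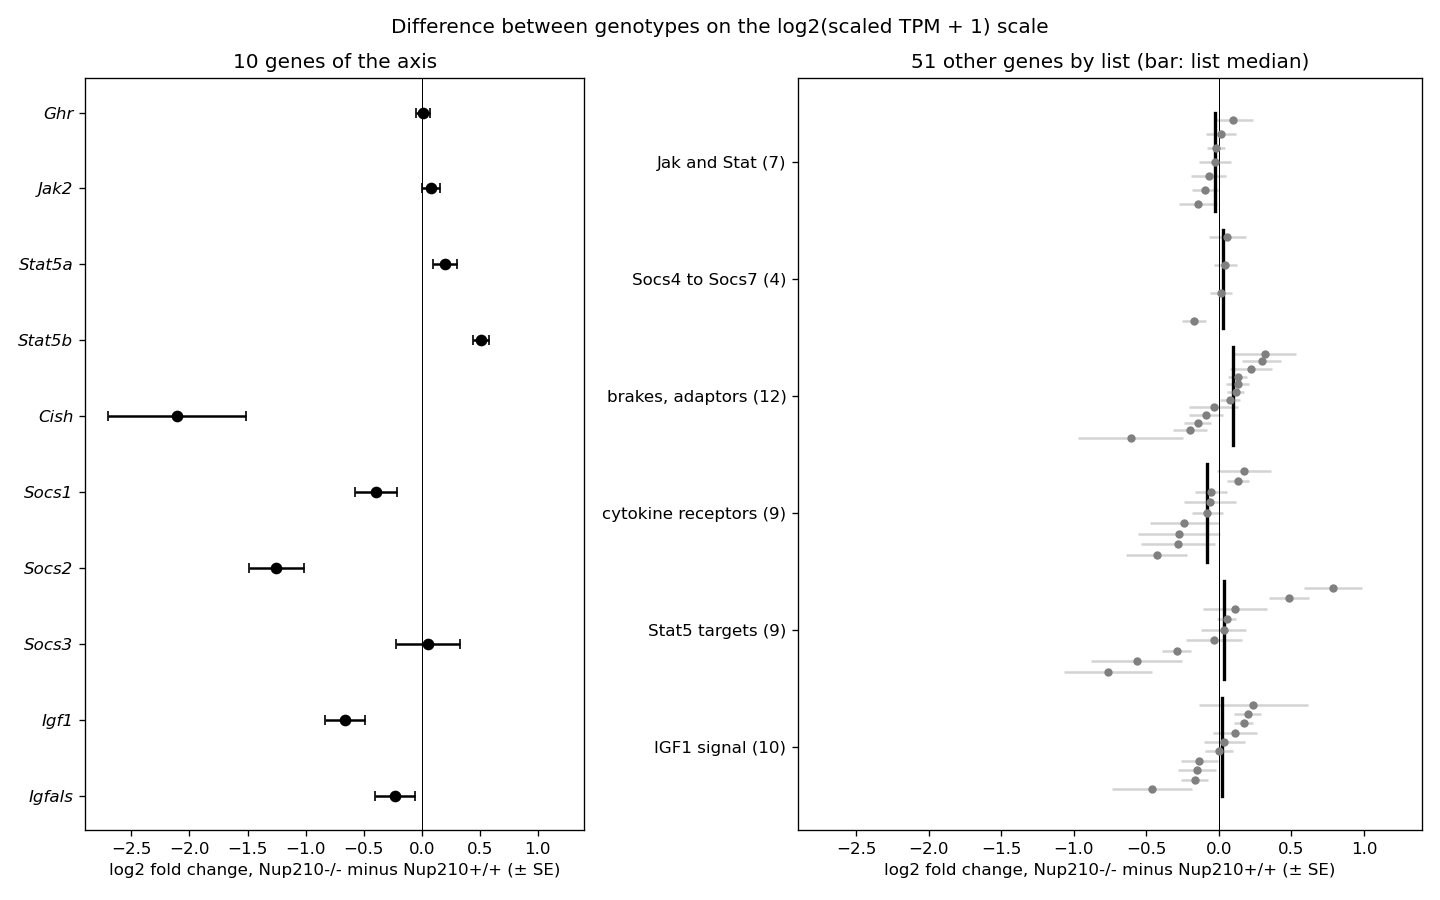
Log2 fold change, Nup210-/- minus Nup210+/+, ± SE on the log2(scaled TPM + 1) scale, for the 10 genes of the axis (left) and for the 51 other pathway genes that could be tested, by list with the number of genes in brackets and a bar at the list median (right). The 10 genes reach from -2.11 (*Cish*) to 0.51 (*Stat5b*), and the others from -0.76 (*Myc*) to 0.79 (*Gadd45g*).

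Covariation between mice of the same genotype does not use the contrast by which the genes were chosen, so it was tested. Each gene was centred on the mean of its genotype and all 45 pairs were correlated over the 8 mice, with an exact two-sided permutation test within genotype over 576 orders, whose smallest possible p is 0.00174. A pair that stood alone at that p would have an adjusted p of 0.0781, so no single pair could have passed after adjustment. No pair had an unadjusted p under 0.05. The pair with the lowest p was *Ghr* and *Stat5b* (Pearson r = -0.60, exact p = 0.0573, adjusted p = 0.825, Spearman rho = -0.60, exact p = 0.108). Leaving out the 2 mice farthest from the median of *Ghr* gave r = -0.64, but on TPM as deposited r was 0.33, so that the sign depended on scaling. *Socs2* and *Igfals* followed (r = 0.67, exact p = 0.0868, adjusted p = 0.825, rho = 0.52, exact p = 0.326), with r = 0.73 without the 2 farthest mice. *Cish* and *Socs2*, both readouts of Stat5, had r = 0.41 (exact p = 0.335, adjusted p = 0.825, rho = 0.45, exact p = 0.229), and *Stat5b* and *Cish* had r = 0.58 (exact p = 0.151, adjusted p = 0.825, rho = 0.33, exact p = 0.425), which became -0.82 without the 2 farthest mice and so rested on them. *Ghr* and *Igf1* had r = 0.66 (exact p = 0.241, adjusted p = 0.825, rho = 0.43, exact p = 0.351), which became -0.77 without the 2 farthest mice.

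For 4 of the genes, the tested genes with the most similar pattern between mice of a genotype were taken, up to 5 for each gene, by Pearson r of centred values over the 8 libraries. For *Cish* they were *Gm10094* (r = 0.986), *6330416G13Rik* (0.982), *Gm16124* (0.962), *Mpp6* (0.954) and *Ccdc9* (0.950). For *Socs2* they were *Gm7206* (r = 0.976), *Setd8* (0.970), *Gm15655* (0.963), *5930430L01Rik* (0.951) and *Tbck* (0.949). For *Igf1* they included *Ifi27l2a* (r = 0.984), *Pck1* (0.978), *March3* (0.977) and *Arhgap10* (0.969), and for *Stat5b* they were *Ddx41* (r = 0.980), *Tnpo2* (0.972), *Prss53* (0.967), *Pdzd3* (0.960) and *Khsrp* (0.955). With 8 libraries and 14229 genes, high values of r are common, and 26 (*Socs2*) to 72 (*Igf1*) genes exceeded an r of 0.9. The pattern of *Igf1* had 1 extreme mouse, Nup210+/+ replicate 3, with 25.47 TPM against 13.12 to 14.63 TPM in the other wild-type mice. That mouse weighs heavily in the r values of *Igf1*, and r without it was not tested. None of the genes named here passed an adjusted p of 0.05 between genotypes, and no other of the 10 genes of the axis was among them.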

How the data were processed

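RNA from quadriceps muscle of 4 Nup210-/- and 4 Nup210+/+ mice was sequenced by the authors as polyadenylated, directional, single-end 75-base libraries, 1 per mouse. Per the labels, reads were trimmed with cutadapt 2.3, aligned to mm10 with STAR 2.7.0d and quantified with RSEM 1.3.1. The authors deposited TPM per gene and library, without pooling. TPM keep no depth, so counting error is unknown and no interval for a single library is given. The authors tested estimated counts, which were not used here, so that test was not repeated.

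TPM were scaled by the median of ratios over 15225 genes (factors 0.936 to 1.12), and log2(scaled TPM + 1) was fitted, for the 14229 genes that averaged 0.5 TPM or more, with limma 3.58.1 in R 4.3.3 (eBayes with trend, genotype as the only term, Benjamini-Hochberg over all genes tested). Fold changes on this scale understate those of low genes. Libraries had 18185 to 19357 genes above 0, and the top 10 genes took 28.1% to 32.0% of TPM. The fit was tested on simulated data.

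The 10 genes, the pathway and marker lists and the tests were chosen with earlier results of these data known. Named were the 10 genes, *Nup210*, in each other list the genes past the adjusted threshold, without overlap, or with the highest or lowest log2 fold change, and for *Cish*, *Socs2*, *Igf1* and *Stat5b* the 5 most similar genes, of which 1 is not reported here. *Igf1r*, *Prlr*, *Epor* and the gene pairs after the first 2 were added after their values were seen.

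Alternatives were other scalings, pseudocounts, filters and variance models, the replicate block, and leaving out each library. Promoter windows and coordinates are from RefSeq and GENCODE M21 on GRCm38.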

Additional observations from a re-analysis of the deposited data

Results flagged for a closer look

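With 4 mice per genotype, the gap of an extreme mouse to its nearest neighbour was compared with the range of the group for each of the 10 genes in each genotype, 20 groups in all, of which chance alone flags about 1. The 2 groups past Dixon's critical value at the 95% level were both wild type. *Igf1* measured 25.47 TPM in Nup210+/+ replicate 3 against 13.12 to 14.63 TPM in the other 3 mice, a gap of 0.878 of the range. *Igfals* measured 3.66 TPM in Nup210+/+ replicate 2 against 5.28 to 5.52 TPM in the other 3, a gap of 0.871 of the range. Without the first mouse the log2 fold change of *Igf1* was -0.48, and without the second that of *Igfals* was -0.34, the range for *Igfals* over all 8 libraries left out in turn being -0.35 to -0.11.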

How the results depend on the processing

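Of the 10 genes, the number past an adjusted p of 0.05 was 1 and became 0 on TPM as deposited, with upper-quartile scaling, with no filter beyond a TPM above 0, with a mean TPM of at least 0.1, with eBayes without trend and with the replicate block. It ran from 0 to 0 with 1 library left out. It stayed at 1 with the other 5 alternatives. Over all tested genes the number called was 16. It was 0 with upper-quartile scaling, with a mean TPM of at least 0.1, without trend and with the replicate block. It was 1 with no filter beyond a TPM above 0, 14 on TPM as deposited, and 16 to 84 with the other 5. Most of the losses were thus shared by the whole table, and their cause was not tested. The number without overlap was 3, and 3 to 5 with 1 library left out, 5 being reached without Nup210+/+ replicate 3, when *Cish* and *Stat5a* no longer overlapped. Over all tested genes, 654 lower and 680 higher of 14229 had no overlap, and 889 and 1029 of 14175 without Nup210+/+ replicate 3. With 1 library left out these numbers were 873 to 1269 and 874 to 1346, so they rose over the whole table too.

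Of the other pathway genes, 3 had no overlap, 1 did with upper-quartile scaling, and 3 to 9 did with 1 library left out (6 without Nup210-/- replicate 2, 5 without Nup210-/- replicate 4, 6 without Nup210+/+ replicate 4 and 9 without Nup210+/+ replicate 3). Over all tested genes, 557 lower and 776 higher of 14229 had none with upper-quartile scaling. The numbers were 1028 and 986 of 14272 without Nup210-/- replicate 2 and 935 and 920 of 14276 without Nup210-/- replicate 4. They were 1269 and 1346 of 14243 without Nup210+/+ replicate 4 and 889 and 1029 of 14175 without Nup210+/+ replicate 3. None passed the adjusted threshold in any setting. No pair of the 10 genes had an exact p under 0.05, and 1 did without the 2 libraries farthest from the median.

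Over all genes, 16 passed the adjusted threshold, 0 to 84 did under the other settings with all 8 libraries and 0 to 10 with 1 library left out. On TPM as deposited the median of all genes was -0.08, so *Ghr*, *Jak2* and *Socs3* changed sign there. The genotypes share replicate numbers but are different mice. Deviations of same-numbered mice from their genotype means correlated at -0.03 to 0.09 over the tested genes, so no broad pairing by number was seen. Such a correlation over all genes cannot exclude a factor shared by same-numbered mice that acts on some genes. With the replicate block, 0 of all genes were called. Depth is unknown, and *Socs1*, at under 2 TPM, is the value that the pseudocount moves most.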
